A study of Mus musculus with 6 samples.

Results

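The transcripts of mouse mitochondrial DNA (mtDNA) are described here in sorted breast tumor cells. All genes whose symbol begins with mt- were taken, which gave 16 of the 22310 genes of the deposited table: 7 mRNAs, 2 rRNAs and 7 tRNAs. The annotation (GENCODE vM21, GRCm38) lists 37 mtDNA genes, and the other 21, among them 6 mRNAs, were not analysed here.

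The samples were 3 libraries of metastasis-initiating cells (MICs) and 3 of non-MICs. Both came from primary mammary tumors of MMTV-PyMT mice of the FVB/N background, in which the mouse mammary tumor virus promoter drives the polyomavirus middle T oncogene in mammary epithelium, and the labels give both the genotype WT. The mice were female and 12 to 18 weeks old at tumor isolation, an age that is not given for single libraries. Cells were grown for a day in DMEM/F12 with fetal bovine serum, insulin and human EGF and sorted as Lin-CD24+CD90+ (MIC) or Lin-CD24+CD90- (non-MIC), so the groups differ in the CD90 gate alone and stand for cells after plating rather than cells in the tumor. Libraries were made from poly(A) RNA and carried between 31467281 and 51759769 reads in genes, and libraries with the same number are called a pair. The replicates are described as independent experiments or tumors, and the labels do not say which mouse each number stands for, so that p-values measure only the spread between these samples. Levels are in CPM, the reads of a gene scaled to a library total of 1000000, and log2 differences are on the scale of log2(value + 1) of the deposited values.

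Mitochondrial DNA is a compact circular genome that encodes core subunits of the respiratory chain, the rRNAs of the mitochondrial ribosome and a set of tRNAs. It is transcribed from both strands as long RNAs by the nuclear-encoded polymerase Polrmt with Tfam, and the tRNAs that punctuate these RNAs are cut out to release the mRNAs and rRNAs, most of which receive short poly(A) tails. In mammary epithelium, as in other tissues, these mRNAs are translated inside the organelle and their products assemble with subunits made from nuclear genes.

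Markers were read first, because they bear on what the libraries hold. Thy1, which encodes the CD90 used for the sort, stood at 43.1, 8.61 and 21.6 CPM in MIC libraries 1, 2 and 3 and at 0.484, 0.604 and 0.361 in the non-MIC libraries. Cd24a, which encodes the CD24 of the sort, stood at 323, 554 and 494 CPM in the MICs and 400, 425 and 536 in the non-MICs. It differed by -0.31, 0.38 and -0.12 log2 units in pairs 1, 2 and 3. Its correlation with the mean of the mtDNA mRNAs was 0.90 over the 6 libraries, and that of Thy1 was -0.47. Among 11164 genes with a mean deposited value of at least 100, 154 had a correlation over 0.9 with that mean. The 5 luminal keratin and adhesion markers summed to between 6047 and 19927 CPM in all 6 libraries, with Krt18 and Krt8 the most abundant. The 4 basal markers summed to 7819, 214 and 953 CPM in the MICs and to 2022, 188 and 630.2 in the non-MICs, with Acta2, smooth muscle actin, or Krt14 the most abundant in each library. With the replicate number as a block, limma called 2 of these 4 higher in MICs, Acta2 (log2 difference 2.42, adjusted p = 3.12e-05) and Krt5 (2.23, adjusted p = 0.0121), each higher in 3 of 3 pairs. Without the block it called 0 of them. With the block edgeR called these 2 and Trp63 (adjusted p = 0.00182). Of all 22310 genes, limma with the block called 0.13% and edgeR with the block 1.41%. In all 3 pairs 2791 genes were higher in MICs. Krt14 was not called in these fits, at a log2 difference of -0.10 and pair differences of 0.50, -0.90 and 0.11. Correlations with the mean of the mtDNA mRNAs ran from -0.77 (Trp63) to -0.34 (Krt14) for the basal markers. For the luminal markers they ran from -0.77 (Krt19) to 0.13 (Epcam). The 4 leukocyte markers present summed to at most 8.64 CPM, the 3 endothelial markers to at most 1.12 and the 4 fibroblast markers to at most 32.7. By the mean over the 6 libraries the most abundant were Cd68, Kdr and Col1a1. All 4 fibroblast markers had a log2 difference above 0, as did 45.8% of all genes. The sum of these markers was 14.5, 14.0 and 32.7 CPM in the MICs and 14.2, 17.2 and 12.8 in the non-MICs. Of them edgeR with the block called Dcn higher in MICs (log2 difference 1.57, higher in 3 of 3 pairs, adjusted p = 0.0152), and limma with the block called 0. Ptprc, which defines leukocytes, had 0 reads in both libraries of pair 1.

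MIC library 1 held the extreme value in the levels given next. It had the highest level of Acta2, 6588 CPM. The level was 1388 in its partner, non-MIC library 1, and 20.7 to 281 in pairs 2 and 3, so both libraries of pair 1 were high. Acta2 was higher in MICs by 2.25, 2.38 and 2.64 log2 units in pairs 1, 2 and 3. MIC library 1 also had the lowest level of the nuclear RNA Malat1, 68.6 CPM against 181 to 554. The sum of the mtDNA transcripts was also lowest there, and their comparison is given below with and without this library.

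Together the 16 mtDNA genes took 0.663% of the reads of MIC library 1 (95% Wilson interval 0.660 to 0.666), 2.28% of MIC library 2 (2.28 to 2.29) and 1.60% of MIC library 3 (1.59 to 1.60). In the non-MICs they took 1.55% of library 1 (1.54 to 1.55), 1.22% of library 2 (1.22 to 1.22) and 2.17% of library 3 (2.17 to 2.17). The intervals cover counting error only and not the spread between samples. The highest and the lowest share were both MIC libraries, and the non-MIC shares lay between them. On average the share was 1.51% (SD 0.812) for the 3 MIC libraries against 1.64% (SD 0.483) for the 3 non-MIC libraries, so the difference of -0.131 percentage points was smaller than the spread within either group. By pair, the share in MICs differed from that in non-MICs by -0.882, 1.06 and -0.572 percentage points, which is 2.33-fold lower in pair 1, 1.87-fold higher in pair 2 and 1.36-fold lower in pair 3. The pairs therefore moved in opposite directions. The difference of the means turned from -0.131 to 0.294 percentage points without MIC library 1, and to 0.131 without non-MIC library 3. The share is relative to the reads of all genes. In these bulk libraries, the number of mitochondria per cell, the RNA per mitochondrion and the amount of other RNA cannot be told apart.

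The complex I subunits were encoded by 5 of the members. mt-Nd1, a membrane subunit at the start of the coding stretch, stood at 1082, 2846 and 2491 CPM in MIC libraries 1, 2 and 3 and at 2457, 1487 and 3388 in non-MIC libraries 1, 2 and 3. MIC library 1 was the lowest of the 6 and non-MIC library 3 the highest, and the groups overlapped, since MIC libraries 2 and 3 lay above non-MIC libraries 1 and 2. Its log2 difference was -0.23 ± 0.45 (SE, n = 3 per group, limma without a block, adjusted p = 1.00). The same fit gave the values of the other members unless a block is named. mt-Nd2, another membrane subunit, was at 569, 2079.7 and 1330.1 CPM in the MICs and at 1479.8, 1079 and 1865 in the non-MICs, with both extremes among the MICs. The antiporter-like subunits mt-Nd4 and mt-Nd5 had the same order of extremes, MIC library 1 lowest and MIC library 2 highest. For mt-Nd4 the levels were 388, 1509 and 1014 CPM in the MICs and 979.6, 931 and 1377 in the non-MICs. For mt-Nd5 they were 709.6, 2459 and 1829 CPM in the MICs and 1739.6, 1115 and 2339.9 in the non-MICs. The log2 differences were -0.31 ± 0.47 for mt-Nd2, -0.36 ± 0.48 for mt-Nd4 and -0.17 ± 0.49 for mt-Nd5 (SE; limma adjusted p = 1.00 for each).

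mt-Nd6 is the member of complex I encoded on the opposite strand, and it was read far less in these poly(A)-selected libraries. Its level was 10.9, 8.99 and 11.8 CPM in the MICs and 19.7, 6.70 and 15.9 in the non-MICs, from 222 to 793 reads per library. Here the 3 MIC libraries lay close together, 10.6 ± 1.45 CPM (SD, n = 3), inside the wider range of the non-MICs, 14.1 ± 6.68 (SD, n = 3). Its log2 difference was -0.28 ± 0.43 (SE; limma adjusted p = 1.00). mt-Nd6 and mt-Nd5 overlap by 14 bases on opposite strands (chrM:13552-13565). Whether the counting used strand is not given in the sources used here. The reads of this overlap, and those of mt-Nd6 as a whole, are therefore uncertain.

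mt-Cytb, the mitochondrial subunit of complex III, had levels of 1323, 5779 and 3322 CPM in the MICs and 3101, 3399 and 4528 in the non-MICs. MIC library 2 was the highest and MIC library 1 the lowest, and the non-MICs lay between them. The log2 difference was -0.30 ± 0.51 (SE; limma adjusted p = 1.00). mt-Co1, the catalytic subunit of cytochrome c oxidase (complex IV), was the member with the most reads, from 68991 to 372522 per library. It stood at 2126, 7311 and 5467 CPM in the MICs and at 4936, 3743 and 7465 in the non-MICs. Group means for mt-Co1 were 4968 ± 2628 and 5381 ± 1900.3 CPM (SD, 3 libraries each), and the log2 difference was -0.23 ± 0.49 (SE; limma adjusted p = 1.00). Within pairs, the MIC level of mt-Co1 was 0.431 times the non-MIC level in pair 1 (95% counting interval 0.427 to 0.434), 1.95 times in pair 2 (1.94 to 1.97) and 0.732 times in pair 3 (0.729 to 0.736). These intervals cover counting error only and not the spread between samples, and the directions of the pairs were not the same.

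**Figure D1:**
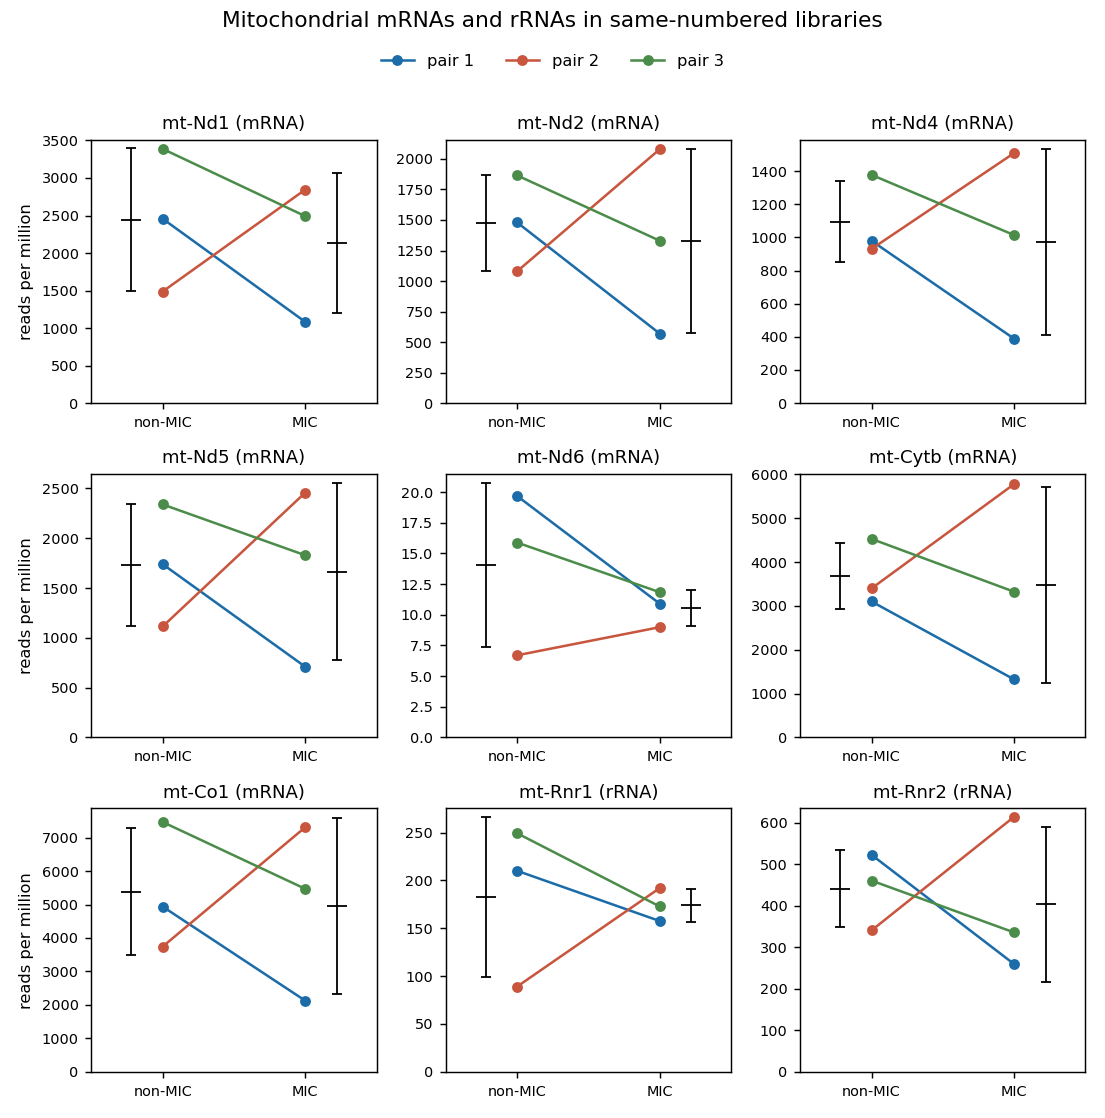
Levels in CPM (vertical axes, linear and starting at 0) of the 7 mitochondrial mRNAs and 2 rRNAs in non-MIC and MIC libraries, with a line for each same-numbered pair and, beside the points, the group mean with bars of 1 SD (n = 3). In every panel pairs 1 and 3 run down from non-MIC to MIC and pair 2 runs up, and the 2 groups overlap.

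The rRNAs of the small and large mitochondrial ribosomal subunits had the same order of signs across the pairs as the mRNAs. mt-Rnr1 was at 158, 192 and 173 CPM in the MICs and at 210.0, 89.1 and 249 in the non-MICs. mt-Rnr2 was at 259.7, 615 and 336 CPM in the MICs and at 523, 341 and 461 in the non-MICs. For mt-Rnr1 the MICs were the more even group, and for mt-Rnr2 the non-MICs were. The log2 differences were 0.05 ± 0.38 for mt-Rnr1 and -0.21 ± 0.34 for mt-Rnr2 (SE; limma adjusted p = 1.00 for both).

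The tRNAs were barely read. All 7 are shorter than the 75-base reads (67 to 71 bases). A full-length read counted for any of them extends past the gene, so the counts below need not measure free tRNAs. Of the 7, 5 had fewer than 10 reads in at least 1 library and at most 30 in any: mt-Ti, mt-Tq, mt-Tm, mt-Te and mt-Tp. A count of 0 was found for mt-Tq in MIC libraries 1 and 2 and non-MIC library 2, for mt-Tm in MIC library 2 and non-MIC library 2, for mt-Te in non-MIC libraries 1 and 2 and for mt-Tp in MIC library 2. It allows a level of up to 0.0924 CPM in MIC library 1, 0.0953 in MIC library 2, 0.0907 in non-MIC library 1 and 0.0906 in non-MIC library 2 (3 reads). mt-Tw, the tryptophan tRNA, had 26, 28 and 45 reads in the MICs and 71, 27 and 107 in the non-MICs. mt-Tt, the threonine tRNA, had 88, 99 and 80 reads in the MICs and 99, 91 and 81 in the non-MICs. Its level was 2.71, 3.15 and 1.55 CPM in the MICs and 2.99, 2.75 and 1.62 in the non-MICs, lowest in both libraries of pair 3. The log2 differences were -0.85 ± 0.57 for mt-Tw and -0.01 ± 0.49 for mt-Tt (SE; limma adjusted p = 1.00 for both). The other 5 had too few reads for a level to be compared.

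Across all 16 members, limma without a block called 0, as it called 0% of the 22310 genes. At an unadjusted p under 0.05 it listed 0 members and 322 genes. With the replicate number as a block, limma called 0 members and 0.13% of genes (29), and edgeR with the block on recovered reads called 0 members and 1.41% of genes (315). For the 7 mRNAs the SE in the blocked limma fit ran from 0.24 (mt-Nd6) to 0.36 (mt-Co1). Their adjusted p in that fit ran from 0.662 (mt-Nd4) to 0.876 (mt-Nd5). The lowest adjusted p of a member was 0.423 in the blocked limma fit, for mt-Tp, and 0.267 in the blocked edgeR fit, for mt-Tw. At an unadjusted p under 0.05 each of these fits listed 1 member, beside 2501 genes in limma and 2621 in edgeR. DESeq2 called 0 members with and without the block, and listed 0 at an unadjusted p under 0.05 in both. For none of the 16 did the 3 MIC libraries lie wholly above or below the 3 non-MIC libraries, where 6.24% of all genes had groups that did not overlap.

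The log2 difference was below 0 for 10 of the 11 members with at least 10 reads in every library. Over all 16 members, the tRNAs with few reads included, it was below 0 for 14, with a median of -0.26, beside a median of -0.04 over all genes, of which 45.8% were above 0. MICs were lower in pair 1, higher in pair 2 and lower in pair 3 for 11 of the 16 members. These were the 11 with at least 10 reads in every library, the 7 mRNAs, 2 rRNAs, mt-Tw and mt-Tt. Of all 22310 genes, 15.9% had this order of signs. For mt-Tt the 95% counting interval of the fold held 1 in all 3 pairs, and for mt-Tw it did in pair 2 (0.643 to 1.85), so these signs lie within counting error. The sign of the mean difference depended on the libraries included. With all libraries the 7 mRNAs were all below 0, with a median of -0.28, and without MIC library 1, 6 of the 7 were above 0, with a median of 0.21; the exception was mt-Nd6, at -0.31. Without non-MIC library 3, mt-Nd1, mt-Nd5 and mt-Co1 were above 0, at 0.04, 0.08 and 0.03, and without non-MIC library 1 mt-Nd6 alone was above 0, at 0.03. Leaving out MIC library 2, MIC library 3 or non-MIC library 2 left all 7 below 0. In the blocked limma fit with 1 pair left out, the members at an unadjusted p under 0.05 numbered 1 without pair 1, 10 without pair 2 and 1 without pair 3, beside 826, 2197 and 2274 of all 22310 genes. Pair 2 is the one that ran the other way, and after adjustment over all genes 0 members passed in these 3 fits.

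Levels of different members were compared per length, in RPKM, the CPM divided by the length of the annotated gene in kilobases. The median over the 6 libraries was 3367 for mt-Co1, 2938 for mt-Cytb and 2585 for mt-Nd1. It was 1354 for mt-Nd2, 978 for mt-Nd5 and 723 for mt-Nd4. The rRNAs followed at 253 for mt-Rnr2 and 191 for mt-Rnr1, and mt-Nd6 was last at 21.9. mt-Nd1 held the third place and mt-Nd2 the fourth in 6 of 6 libraries, and mt-Nd6 was last in 6 of 6. mt-Co1 and mt-Cytb changed places: mt-Co1 was first in both libraries of pairs 1 and 3 and mt-Cytb was first in both libraries of pair 2. The order of the mRNAs depends on how length is counted, as given below for nuclear copies. The low places of the rRNAs and of mt-Nd6 are those of the poly(A)-selected fraction and are no measure of their total RNA. Among the 21819 genes of at least 200 annotated bases, mt-Co1 ranked between 1 and 17 by this measure and mt-Cytb between 1 and 19, each with its lowest rank in MIC library 1. mt-Nd6 ranked between 1276 and 3939.

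The proportions of mt-Co1, mt-Cytb and mt-Nd1 among the 7 mRNAs differed more by pair than by group. Those of mt-Nd5 and mt-Nd4 also differed within pair 2. There the MIC library had 11.2% mt-Nd5 and 6.86% mt-Nd4, and the non-MIC library 9.48% and 7.91%. mt-Co1 made up 34.2%, 33.2% and 35.4% of the mRNA reads in MIC libraries 1, 2 and 3 and 33.6%, 31.8% and 35.6% in the non-MICs. mt-Cytb made up 21.3%, 26.3% and 21.5% in the MICs and 21.1%, 28.9% and 21.6% in the non-MICs. mt-Nd1 went the other way, with 17.4%, 12.9% and 16.1% in the MICs and 16.7%, 12.6% and 16.1% in the non-MICs. Both libraries of pair 2 thus had more mt-Cytb and less mt-Nd1 than the other 4. The log2 ratio of mt-Cytb to mt-Nd1 was 0.29 and 0.34 in the MIC and non-MIC library of pair 1. It was 1.02 and 1.19 in pair 2 and 0.42 and 0.42 in pair 3. Within pairs the MIC value differed from the non-MIC value by -0.05, -0.17 and 0.00, with a mean of -0.07. mt-Nd1 (chrM:2751-3707) and mt-Cytb (chrM:14145-15288) lie at opposite ends of the coding stretch on the same strand, and whether position bears on the ratio was not tested.

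The ratio of mt-Nd5 to its opposite-strand neighbour mt-Nd6 also varied. Its log2 was 6.02 and 6.47 in pair 1, 8.10 and 7.38 in pair 2, and 7.27 and 7.20 in pair 3, in the order MIC and non-MIC, so that mt-Nd5 had between 65.1 and 273 times the reads. This ratio is that of the poly(A)-selected fraction and is no measure of total RNA. The log2 ratio of mt-Rnr2 to mt-Rnr1 was 0.72 and 1.32 in pair 1, 1.68 and 1.94 in pair 2, and 0.96 and 0.89 in pair 3. In both ratios pair 2 stood highest, in MICs and non-MICs alike.

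The mRNAs other than mt-Nd6 varied together. Over the 6 libraries, Pearson correlations of log2 values between these 6 mRNAs were 0.84 or higher, with the highest, 0.99, between mt-Co1 and mt-Nd5. mt-Nd6 correlated at 0.22 with the mean of the other mRNAs, mt-Rnr2 at 0.86 and mt-Rnr1 at 0.58 with the mean of the mRNAs. These are descriptions over 6 libraries that form 3 pairs and share a scaling to the library total.

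The subunits that nuclear genes supply to the same complexes did not move with the mRNAs. The ratio of the 7 mRNAs to 14 nuclear subunits of complexes I, III and IV does not depend on the scaling to the library total. Its log2 was 1.38, 3.35 and 3.24 in the MICs and 3.03, 2.58 and 3.70 in the non-MICs, with means of 2.66 ± 1.11 and 3.10 ± 0.56 (SD, n = 3). MIC library 1 was the lowest by a wide margin and the groups overlapped. By pair the ratio differed by -1.65, 0.77 and -0.45 between MICs and non-MICs, while the nuclear subunits alone differed by 0.40, 0.13 and 0.01. Without MIC library 1 the mean difference of the ratio changed from -0.44 to 0.20. The pairs kept these signs in each complex. In complex I the ratio differed by -1.63, 1.01 and -0.43, in complex III by -1.68, 0.75 and -0.47, and in complex IV by -1.61, 0.56 and -0.48. None of the 14 nuclear subunits passed the threshold in limma with or without the block or in edgeR with the block. Of all 22310 genes, 0.13% passed in limma with the block, 0% without it and 1.41% in edgeR with the block. At an unadjusted p under 0.05 the blocked limma fit listed 1 subunit of complex I, 1 of complex III and 0 of complex IV, beside 2501 of all genes. Among the 3 nuclear complex IV subunits used, Cox4i1, a regulatory subunit, had the most reads. It stood at 437, 619.7 and 287 CPM in the MICs and 299, 412 and 279 in the non-MICs. For complex V no mitochondrial member was analysed here, and the nuclear subunits Atp5a1 and Atp5b had log2 differences of -0.08 and 0.00.

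Genes that transcribe and replicate mtDNA showed no call. Of 18 such genes, all in the table, 10 were above and 8 below 0, with a median log2 difference of 0.07, and 0 passed in limma with or without the block or in edgeR with the block. The blocked limma fit listed 0 of them at an unadjusted p under 0.05, beside 2501 of all 22310 genes. Of all genes, 45.8% were above 0. Tfam, which packages mtDNA and starts its transcription, stood at 48.8, 56.6 and 49.4 CPM in the MICs and 44.8, 39.7 and 54.4 in the non-MICs. Its log2 difference was 0.17 ± 0.21 (SE; limma adjusted p = 1.00). Polrmt, the mitochondrial RNA polymerase, was at 26.2, 33.5 and 17.5 CPM in the MICs and 32.7, 47.8 and 16.2 in the non-MICs. Polg, the catalytic subunit of the mtDNA polymerase, had a log2 difference of -0.32 ± 0.21 (SE) and Ssbp1, the single-stranded DNA binding protein, one of 0.29 ± 0.24 (SE); neither was called.

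Of 28 genes that process or stabilise mitochondrial RNA, 11 were above and 17 below 0, with a median of -0.03, and 0 passed in the same fits. The blocked limma fit listed 6 of them at an unadjusted p under 0.05, beside 2501 of all 22310 genes. Lrpprc and Slirp form the complex that holds mitochondrial mRNAs stable. Lrpprc stood at 82.9, 80.0 and 126 CPM in the MICs and 97.2, 101 and 132 in the non-MICs, lower in MICs in each pair. Slirp stood at 60.6, 70.5 and 47.4 in the MICs and 40.7, 34.3 and 48.6 in the non-MICs, higher in MICs in pairs 1 and 2. Their blocked limma adjusted p-values were 0.624 and 0.419. The genes with the highest mean over the 6 libraries were Grsf1, an RNA granule protein, Mrpl12, a ribosomal protein, and Rexo2, an oligoribonuclease, the last at 104 CPM beside 103 for Lrpprc. Rexo2 was higher in MICs in 3 of 3 pairs, by 0.90, 0.27 and 0.27 (blocked limma adjusted p = 0.418). Of all 22310 genes, 2791 were higher in all 3 pairs and 4192 lower. Grsf1 had the order of signs of the mRNAs, at -0.22, 0.09 and -0.07, and was not called in these fits.

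Signs of handling and RNA quality were read beside the members. The nuclear RNAs Malat1 and Neat1 had the same order of signs as the mRNAs. Malat1 differed between MICs and non-MICs by -1.40, 1.02 and -0.32 log2 units in pairs 1, 2 and 3, and its correlation with the mean of the mRNAs was 0.89 over the 6 libraries. Neat1 differed by -2.66, 1.10 and -1.90, with a correlation of 0.88, and was called lower by edgeR with the block (adjusted p = 1.96e-05) but not by limma with the block (adjusted p = 0.423). The 7 immediate early and stress genes were all below 0 in MICs and 5 of them were lower in all 3 pairs, with none called by limma or by edgeR with the block. Of all 22310 genes, 4192 were lower in all 3 pairs. At an unadjusted p under 0.05 the blocked limma fit listed 3 of the 7, beside 2501 of all 22310 genes. The 7 genes summed to 778, 1166 and 1457 CPM in the MICs and 1239, 1387 and 1644 in the non-MICs, and by the mean over the 6 libraries Fos was the most abundant. Their correlations with the mean of the mRNAs ran from -0.56 (Junb) to 0.72 (Fos). Of 11164 genes with a mean deposited value of at least 100, 154 had a correlation over 0.9. Whether these differences, or those of the basal markers and Cd24a, bear on the levels of the mtDNA transcripts was not tested.

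The genes most like the members were found by the Pearson correlation of log2 values over the 6 libraries with the mean of all 16 members, among 11164 genes with a mean deposited value of at least 100. They were Zfp280b (r = 0.99), Slc7a6os (0.98), Tbc1d32 (0.98), Zfp445 (0.97) and Fbxw7 (0.97), and 69 genes had r over 0.9. In that mean the tRNAs with few reads weigh as much as the mRNAs. With the mean of the 7 mRNAs alone, a profile chosen after seeing the data, the first 5 were Ccnj, Ireb2, Hps3, Vezf1 and Aftph, with 0 genes shared between the lists. Ccnj stood at 9.58, 15.0 and 13.3 CPM in the MICs and 14.1, 11.4 and 15.0 in the non-MICs. With 6 libraries in 3 pairs these lists are descriptions only.

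Stretches of mtDNA that were copied into nuclear chromosomes bear on how reads of the members are assigned. Among annotated transcripts, 11 nuclear pseudogenes matched an mtDNA gene at 95% identity or more over at least 75 bases, the read length, and 5 of them were identical to it over the aligned stretch. Of the 11, 7 lie side by side on the minus strand of chromosome 1 (chr1:24611535-24616197) and correspond to positions 6390 to 11042 of mtDNA, in the same order, 5 of them at a single offset and 2 shifted by 1 base. On chromosome 2 there were 3, corresponding to positions 4442 to 7696, and Gm4076 on chromosome 13 matched mt-Nd5 at 95.2%. Copies on unannotated sequence were not searched.

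The members differed in how much of their sequence a copy shares. mt-Nd4 shared 61.5% of its 75-base windows exactly with an annotated copy, mt-Co1 39.8%, mt-Nd2 5.71% and mt-Nd5 0.457%. mt-Nd1, mt-Nd6, mt-Cytb and both rRNAs shared 0%. Of the 6 mRNAs not analysed here, which lie next to each other at chrM:7013-10173, mt-Co2 shared 99.5%, mt-Atp6 99.5%, mt-Co3 99.9%, mt-Nd3 97.8% and mt-Nd4l 98.7%, and mt-Atp8 0%. The copies flanking mt-Atp8, Gm28661 and Gm10925, start 914 bases apart on chromosome 1 and 914 bases apart in mtDNA, and the search found no copy between them. How reads that match more than 1 place were counted is not given in the sources used here. Levels of mt-Nd4 and mt-Co1 are therefore uncertain: per 1000 windows not shared with a copy, an alternative chosen after seeing the data, mt-Nd4 moved from place 6 to place 4 in the order of medians, mt-Nd2 from 4 to 5 and mt-Nd5 from 5 to 6. In non-MIC library 2 mt-Nd4 took place 3 and mt-Nd1 place 4. By that measure mt-Co1 was first and mt-Cytb second in 6 of 6 libraries, with medians of 5878 and 3141, so that the change of places in pair 2 was not seen. The measure assumes that reads of shared windows were not counted, which was not tested.

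**Figure D2:**
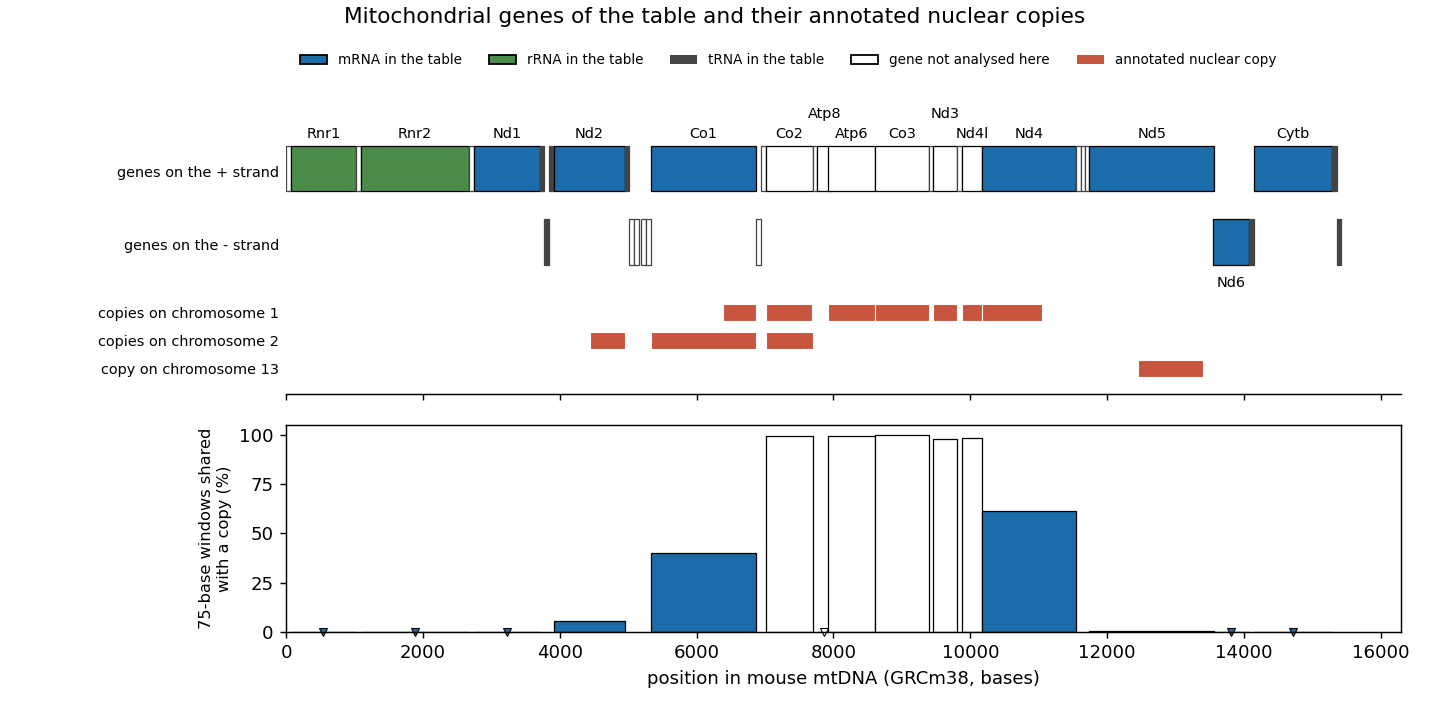
Mouse mtDNA in GRCm38 (horizontal axis, bases): genes by strand with the annotated nuclear copies below them, and the percent of 75-base windows of each mRNA or rRNA that a copy holds exactly (lower panel; triangles mark 0). The 5 genes above 97% are among the mRNAs not analysed here, and in the table mt-Nd4 (61.5%) and mt-Co1 (39.8%) share the most.

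The table also holds 7 of the 11 copies, with few reads. Gm13340, the copy of mt-Co1 on chromosome 2, had 21, 81 and 79 reads in MIC libraries 1, 2 and 3 and 65, 32 and 85 in the non-MICs. Gm29216, a copy of part of mt-Co1 on chromosome 1, had 1, 5 and 11 reads in the MICs and 3, 3 and 21 in the non-MICs. Against the 68991 or more reads of mt-Co1 itself these are small. In Gm13340 the MIC library had fewer reads than its partner in pair 1 and more in pair 2, as in mt-Co1. In pair 3 it had 79 reads against 85, a gap too small to read a direction from. Gm13341, a copy of mt-Co2 on chromosome 2, had 2, 43 and 31 reads in the MICs and 23, 7 and 41 in the non-MICs. The other 4, Gm28661, Gm10925, Gm10222 and Gm4076, had at most 6 reads in any library.

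The sequences show how little separates a gene from its copies within a read. The first 75 bases of the stretch that mt-Co1 (chrM:6390-6464, plus strand) shares with Gm29216 (chr1:24616114-24616188, minus strand) and Gm13340 (chr2:22588511-22588585, minus strand) are given 5′ to 3′, with bases that differ from mtDNA in capitals, 1 in Gm29216 and 2 in Gm13340.
mt-Co1: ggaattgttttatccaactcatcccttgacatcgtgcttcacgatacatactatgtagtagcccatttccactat
Gm29216: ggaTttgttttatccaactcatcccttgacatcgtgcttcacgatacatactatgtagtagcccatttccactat
Gm13340: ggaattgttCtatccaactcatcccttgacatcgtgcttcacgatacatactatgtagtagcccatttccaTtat

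For mt-Co2, which was not analysed here, the start of the gene (chrM:7013-7087, plus strand) is set beside Gm28661 (chr1:24615491-24615565, minus strand), which differs by 0 bases, and Gm13341 (chr2:22587888-22587962, minus strand), which differs by 2, in capitals. A read of this stretch has the same sequence whether it comes from mt-Co2 or from Gm28661.
mt-Co2: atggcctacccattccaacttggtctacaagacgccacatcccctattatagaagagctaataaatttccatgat
Gm28661: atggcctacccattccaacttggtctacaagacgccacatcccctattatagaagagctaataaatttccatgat
Gm13341: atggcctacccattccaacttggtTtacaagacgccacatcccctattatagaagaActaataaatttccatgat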

How the data were processed

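RNA of sorted MICs and non-MICs (3 libraries each) was prepared with a stranded poly(A) kit and read in 75-base reads. The deposited values are a signal: gene counts that the authors scaled to the library total, so that each library sums to the same value, with genes detected in at least 3 of the 6 libraries kept. The study's methods name alignment to the mouse transcriptome (GRCm38/mm10) with Bowtie2 and samtools, while the submitters' processing notes name STAR and HTSeq; versions and the annotation are not given in the sources used here. Ensembl identifiers were matched to symbols of GENCODE vM21 (22161 of 22310), and the members are the genes whose symbol begins with mt-.

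Each library's values were whole multiples of the value of 1 read (99.97% or more of genes within 0.01 of a whole number), which gave recovered reads for shares, intervals and edgeR. The main test was limma 3.58.1 (trend, R 4.3.3) on log2(value + 1) over all genes, with no block and Benjamini-Hochberg adjustment at 0.05, since the study ranked genes without pairing. The numbers in the labels pair the libraries: departures from group means correlated at 0.57, 0.67 and 0.75 for equal numbers and were negative for all others, so the replicate block is given beside the results. The exact permutation test was not used, as 3 against 3 cannot go below 0.1. Alternatives were TMM, quantile and a scaling to all other genes, no trend, pseudocounts of 10 and 0.1, only genes above the median level, edgeR 4.0.16 and DESeq2 1.42.0 on recovered reads, and each library or pair left out. The limma and edgeR scripts were tested on simulated data. Copies were found with blastn 2.17.0. The members and gene lists were chosen with earlier results of these data known. Named genes were all mt- genes, the 3 with the highest mean of each mtDNA expression list, Tfam, Polrmt, Lrpprc, Slirp and any called gene of these lists. Also named were nuclear subunits of the complexes, copies, the 5 most like genes, cell type markers and sort genes. Immediate early and stress genes, Malat1 and Neat1 were named as well. Cd3e was not matched by symbol and was not used here, 1 further list of cell type markers was not used here, and Prorp was found under an older symbol.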

Additional observations from a re-analysis of the deposited data

How the results depend on the processing

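The count of members past the threshold was 0 under every alternative run, and so was that of the mtDNA expression genes. Over the whole table the count was 0 in limma and edgeR without a block, 1 in DESeq2, 29 in limma with the replicate block (27 up, 2 down), 315 in edgeR with the replicate block and 133 in DESeq2 with the replicate block; leaving out a library or a pair gave 0 to 59. The replicate block changed no call of a member. With another pseudocount, scaling, filter, trend, block or tool, 181 of 185 log2 differences of members kept their direction, and the 4 others were near 0: mt-Rnr1 at -0.0749 in edgeR and -0.0377 in DESeq2, and mt-Tt at 0.0248 in DESeq2 and 0.0257 in DESeq2 with the block. With a library or a pair left out, 29 of 144 changed direction, with ranges of -0.81 to 0.25 for mt-Nd1, -0.93 to 0.23 for mt-Nd2, -0.89 to 0.20 for mt-Nd4, -0.82 to 0.39 for mt-Nd5, -0.75 to 0.0263 for mt-Nd6, -0.84 to 0.27 for mt-Cytb, -0.83 to 0.29 for mt-Co1, -0.47 to 0.35 for mt-Rnr1, -0.73 to 0.20 for mt-Rnr2, -0.88 to 0.47 for mt-Tm and -0.28 to 0.30 for mt-Tt. The cause was not tested. The difference in summed share lay between -0.514 and 0.294 percentage points with a library left out, above 0 without MIC library 1 and without non-MIC library 3 (0.131), and the difference in the log2 ratio to nuclear subunits between -0.79 and 0.20, above 0 without MIC library 1 alone. Of the 5 most like genes, 0 were shared with the list from the mRNAs alone; this list and the levels by windows not shared with a copy were chosen after seeing the data. The filter at the median left 9 members, so it gave no value for the tRNAs. The 5 tRNAs with few reads could not be compared at this depth, and whether their length or the poly(A) selection bears on this was not tested; 3 libraries per group with pairs of opposite direction limit all differences.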
